A study of Artemia parthenogenetic lineage with 6 samples.

Results

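Within set limits on level, 31 evm gene models stood at least 3-fold lower in every 5 h library than in any diapause library. The cysts were those of brine shrimp in diapause and 5 h after its end, and evm models carry an identifier of the evm.TU kind. The 31 were chosen by a rule on CPM, the count of a model scaled to a common library total. The rule took evm models only. It asked for at least 1 CPM in every 5 h library and for a mean below 200 CPM in diapause. The lowest diapause library had to be at least 3 times the highest 5 h library. Of the 16591 gene models in the deposited table, 13138 are evm models, 8202 of these met both limits on level, and 31 met the whole rule. The rule keeps to transcripts that were lowered but not lost, and it leaves out the very abundant ones.

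RNA was sequenced from whole cysts of wild-type Artemia parthenogenetica, with 3 libraries at the diapause stage (ArD_0h) and 3 libraries 5 h after embryonic diapause termination (EDT; ArR_5h). All cysts were collected at Ebinur Lake and, per the study, came from the same batch as biological replicates. The p-values below test the difference between stages against the spread between these libraries, and do not cover spread between batches of cysts. The ArR_5h cysts had been dried and refrigerated to break diapause, rehydrated in ice-cold artificial seawater of 30‰ salinity, and kept in such seawater at 28 °C in constant light. The labels list no treatment for ArD_0h, while the shared protocol does not say which of these steps those cysts went through, so that effects of handling and of the 5 h cannot be told apart. A cyst holds a whole embryo, and in such bulk samples fewer cells of a type and less RNA per cell cannot be told apart.

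A brine shrimp cyst is a shelled embryo that has stopped at the gastrula stage. In diapause its metabolism and its synthesis of RNA and protein are almost halted, and the embryo lives on a store of messenger RNAs and protective proteins laid down by the mother or made before the arrest. When diapause ends, metabolism and transcription resume before the embryo hatches, and stored messengers can be translated, kept or broken down. Values of mRNA sequencing are relative to the library total, so a lower value is a lower share of all counted reads and not necessarily fewer molecules.

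The deposited table pairs none of these identifiers with a gene name, so their functions are not described here, and no marker of the tissue could be looked up. The study gives Gene Ontology terms for genes that changed in the first interval after EDT, in a list held here in shortened form. Of the 31 models, 1 is in that list, evm.TU.ctg519.1, and it carries no term there. With no term there for any of the 31, none of them could appear in the 19 functional groups taken from the list. Among these groups are transporters, protein kinases, peptidases, oxidoreductases and signal transduction. The list held 566 of the 9541 evm models tested. For instance, 13 of 26 listed transporter genes were up-regulated and 1 was down-regulated at 5 h, and for signal transduction these counts were 25 and 0 of 46. Other groups had lower shares, with 10 and 0 of 41 for zinc ion binding and 3 and 0 of 12 for GTP binding. The list as a whole leaned the same way, with 224 of its 566 tested models up-regulated and 10 down-regulated, beside 14.7% up-regulated and 8.21% down-regulated among all evm models tested. The list was chosen by the study partly on the same ArD_0h libraries, and only its first part was read. The part of that choice in the lean towards up-regulation was not tested. These counts do not describe the functions of the 31 models.

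Library totals were 9992823 to 13505892 counts. Replicates differed by more than the sampling of reads, with a chi-square per degree of freedom of 2.41 to 2.98 for pairs of ArD_0h replicates and 4.80 to 26.4 for pairs of ArR_5h replicates, the largest between ArR_5h replicates 2 and 3. As a group the 31 models took up 0.158% ± 0.00252 of all reads counted in diapause and 0.0339% ± 0.00627 of those at 5 h (SD, n = 3). In the single 5 h libraries this share was 0.0351%, 0.0395% and 0.0271% in replicates 1, 2 and 3.

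The quasi-likelihood test of edgeR over the whole table was used to call a model down-regulated where its adjusted p did not exceed 0.05 and its log2 fold change lay below −1. All 31 models were called, beside 10.7% of all 11959 models tested and 8.21% of the 9541 evm models tested. The rule chose the 31 on the same contrast, so nothing is read from this count and no p-value is given for them. Fold changes and errors are descriptions for the same reason. The median log2 fold change of the 31 was −2.20, with a range from −3.41 to −1.76 and standard errors of 0.08 to 0.26, beside a median of 0.02 over the evm models tested.

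**Figure D1:**
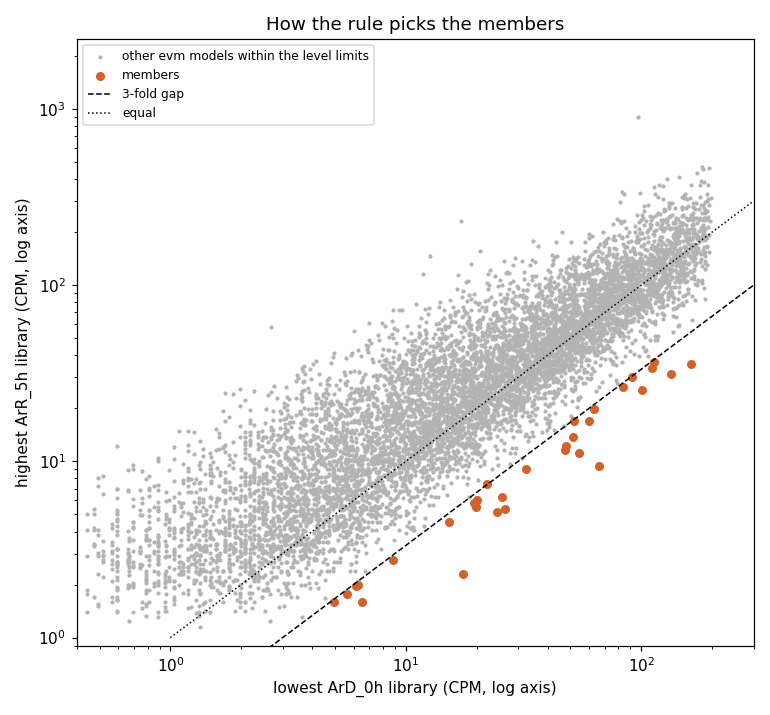
Each point is an evm model within the level limits of the rule, at its lowest ArD_0h library on the horizontal axis and its highest ArR_5h library on the vertical axis (CPM, both log axes). The 31 members (orange) lie on or below the dashed line of a 3-fold gap, and the other 8171 models lie above it.

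The limit cut through a continuous range. Just inside it stood evm.TU.ctg927.2 and evm.TU.ctg534.3, both with a gap barely over 3 between the lowest 0 h and the highest 5 h library, and evm.TU.ctg519.1 with a gap of 3.07. Just outside it stood evm.TU.ctg102.20, evm.TU.ctg264.15 and evm.TU.ctg873.8, with gaps of 2.998, 2.97 and 2.94. A gap of at least 4 was met by 10 of the 31 models, and a gap of at least 2 by 178 evm models. By the ratio of group means alone, 106 evm models within the level limits were more than 3-fold lower, so that the demand on every single library removed most of them.

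The widest separations belonged to evm.TU.ctg456.2 and evm.TU.ctg5.13. The short model evm.TU.ctg456.2, of 405 bases, stood at 17.6, 20.3 and 19.5 CPM in ArD_0h replicates 1, 2 and 3, and at 1.59, 2.302 and 1.63 CPM in those of ArR_5h. Its group means differed 10.4-fold, at a log2 fold change of −3.41 ± 0.19 (SE). With 18, 23 and 20 reads in the 5 h libraries, each of its 5 h values carries a counting error of about 22.2%. The very long model evm.TU.ctg5.13, of 12943 bases, had 72.04, 65.9 and 77.7 CPM in the diapause libraries and 6.64, 9.41 and 5.05 CPM in the 5 h libraries. This was 10.2-fold lower on the means, with a log2 fold change of −3.40 ± 0.17 (SE), and the lowest value at 0 h was still 7.01 times the highest at 5 h. The 2 models were alike in size of change and unlike in length and level.

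The model evm.TU.ctg883.6 followed, with 58.4, 66.9 and 54.3 CPM at 0 h. Its 5 h libraries read 9.04, 11.2 and 3.74 CPM, the largest spread of any of the 31, with replicate 3 well below the others. The group means differed 7.49-fold (−2.96 ± 0.26, log2 ± SE). Against ArR_5h replicate 2 alone it was 5.34-fold lower, and against replicate 3 alone 15.98-fold.

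A single pair of the 31 has consecutive numbers on a contig, evm.TU.ctg1105.4 and evm.TU.ctg1105.5, and both were among the 8 with the largest fold. The first, of 615 bases, went from 34.2, 32.9 and 26.4 CPM to 4.61, 5.404 and 3.26 CPM, with a log2 fold change of −2.86 ± 0.18 (SE). For the second, of 1313 bases, the libraries read 53.1, 60.98 and 51.2 CPM at 0 h and 9.83, 13.8 and 7.25 CPM at 5 h, and the log2 fold change was −2.47 ± 0.17 (SE). In both models ArR_5h replicate 2 was the highest and replicate 3 the lowest of the 5 h libraries. Whether the 2 models share reads or belong to a single transcript was not tested.

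The other 3 models among the 8 largest folds differed in level. For evm.TU.ctg60.30 the diapause libraries read 7.75, 9.27 and 6.52 CPM and the 5 h libraries 1.06, 1.601 and 1.22 CPM, from as few as 12, 16 and 15 reads. In evm.TU.ctg32.29 they read 51.3, 47.6 and 49.02 CPM and 8.68, 11.6 and 6.84 CPM, a 5.45-fold difference. The abundant evm.TU.ctg545.1, a model of 407 bases, stood at 149, 146 and 134 CPM in diapause and 25.9, 31.5 and 22.1 CPM at 5 h, 5.398-fold lower (−2.47 ± 0.10, log2 ± SE). Its lowest 0 h library was 4.26 times its highest 5 h library, where the rule demands at least 3.

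**Figure D2:**
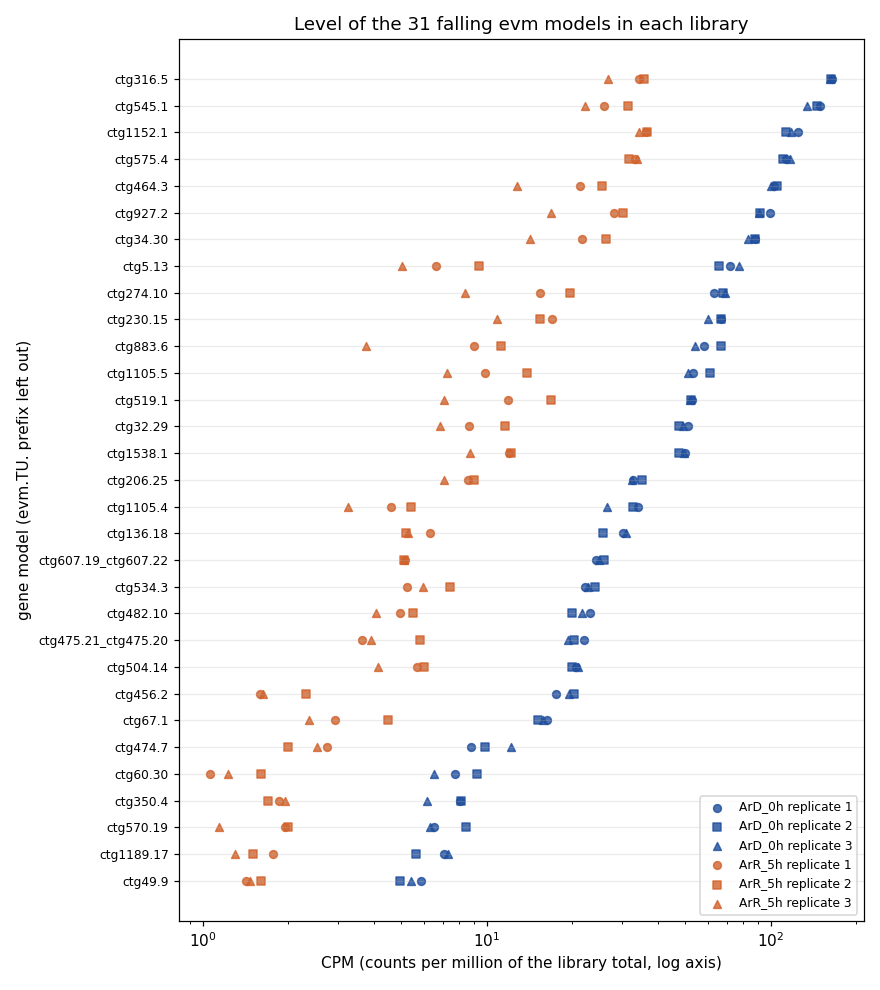
CPM (log axis) of each of the 31 models, one row a model, in the ArD_0h libraries (blue) and the ArR_5h libraries (orange), with a marker shape for each replicate number and rows ordered by mean level at 0 h. In every row the blue points lie to the right of the orange ones, by the rule, and the blue points of a row are mostly closer together than the orange ones.

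By level in diapause, 5 of the 31 models had a mean over 100 CPM, 12 lay from 30 to 100 CPM, 9 from 10 to 30 CPM and 5 below 10 CPM. The 8 highest models together made up 56.8% of the summed CPM of the group at 0 h. The highest, evm.TU.ctg316.5, gave 165, 163 and 163 CPM in the ArD_0h replicates, a spread of 0.829% (coefficient of variation, CV) that is smaller than its counting error of 2.32%. At 5 h it read 34.4, 35.9 and 26.8 CPM, 5.06-fold lower on the means (−2.37 ± 0.09, log2 ± SE). The rule demands a gap of at least 3 between the libraries of the stages, and in this model it was 4.53.

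Among the highest models the size of change and its spread differed. The models evm.TU.ctg1152.1 and evm.TU.ctg575.4 had 125, 113 and 118 CPM and 113, 111 and 117 CPM at 0 h. At 5 h they read 36.3, 36.8 and 34.4 CPM and 33.2, 31.7 and 33.8 CPM. These are the smallest changes on the means within the group, 3.32-fold and 3.45-fold, and they met the rule with gaps of 3.08 and 3.28, since their 5 h libraries lay close together. By contrast evm.TU.ctg464.3 read 103, 105 and 101 CPM at 0 h and 21.3, 25.5 and 12.8 CPM at 5 h, where replicate 3 read 0.501 times the level of replicate 2, and its 5.18-fold difference passed with a gap of 3.95. A similar spread was seen in evm.TU.ctg927.2, with 99.9, 91.7 and 91.1 CPM and then 27.996, 30.3 and 16.9 CPM, and in evm.TU.ctg34.30, with 88.01, 88.1 and 83.5 CPM and then 21.7, 26.4 and 14.2 CPM. In both, replicate 3 stood below the others.

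The other named models of middle level behaved in the same range. For evm.TU.ctg274.10 the libraries gave 63.1, 67.9 and 68.9 CPM at 0 h and 15.4, 19.7 and 8.39 CPM at 5 h (−2.25 ± 0.21, log2 ± SE). For evm.TU.ctg230.15 they gave 66.6, 66.995 and 60.2 CPM and 16.9, 15.4 and 10.9 CPM (−2.20 ± 0.13). The model evm.TU.ctg519.1 stood at 52.8, 52.6 and 51.9 CPM in diapause, within 0.859% (CV), and at 11.9, 16.9 and 7.08 CPM at 5 h, within 41.1%. The long model evm.TU.ctg534.3, of 7633 bases, went from 22.2, 24.1 and 22.8 CPM to 5.23, 7.41 and 5.94 CPM (−1.93 ± 0.15).

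The 31 include 2 of the 287 evm models whose identifier joins 2 names. In evm.TU.ctg607.19_evm.TU.ctg607.22 the 5 h libraries gave 58, 51 and 63 reads, or 5.14, 5.104 and 5.13 CPM, after 24.3, 25.9 and 24.9 CPM in diapause. The spread of 0.352% at 5 h is far below its counting error of 13.2%, so the closeness of these libraries is more than this depth can resolve. The other joined model, evm.TU.ctg475.21_evm.TU.ctg475.20, named here after its values were seen, went from 22.03, 20.3 and 19.4 CPM to 3.63, 5.804 and 3.91 CPM.

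The other 11 of the 31 models were not among the leading ones by level, fold or spread. With the joined model just named, they had 5.40 to 49.1 CPM at 0 h and 1.49 to 10.96 CPM at 5 h, with mean differences of 3.61-fold to 5.17-fold and log2 fold changes from −2.40 to −1.88. The shortest model of the group is one of them, evm.TU.ctg350.4 with 326 bases, at 8.04, 8.09 and 6.15 CPM and then 1.86, 1.701 and 1.95 CPM. The 5 models below 10 CPM in diapause had only 12 to 24 reads in a 5 h library, so that a counting error of 22.0% to 26.4% goes with each of their 5 h values.

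Level per length was compared with FPKM, the authors' count of fragments scaled by library and model length, from which model lengths were also recovered. Length was not part of the rule. The 31 models were 326 to 12943 bases long with a median of 1588 bases, beside a median of 1299 bases and quartiles of 774 and 2063 bases over the evm models tested. Models under 1000 bases were 8 of 31 (25.8%), against 36.3% of the evm models tested. At the same number of molecules a longer model gives more CPM, and the part of the limits on CPM in these lengths was not tested.

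On the FPKM scale evm.TU.ctg545.1 was by far the highest of the 31, with 349 ± 17.3 FPKM at 0 h and 63.9 ± 7.91 FPKM at 5 h (SD, n = 3). It was followed by evm.TU.ctg575.4 with 83.7 ± 2.36 FPKM and evm.TU.ctg1152.1 with 74.3 ± 3.26 FPKM at 0 h. The model with most CPM, evm.TU.ctg316.5, came next at 51.3 ± 0.0603 FPKM, just above evm.TU.ctg1105.4 at 50.2 ± 6.46 FPKM, and these 2 do not differ beyond their spread. At the other end, evm.TU.ctg5.13 had 5.51 ± 0.459 FPKM at 0 h and 0.5301 ± 0.138 FPKM at 5 h, and evm.TU.ctg534.3 had 2.99 ± 0.138 FPKM and 0.798 ± 0.125 FPKM. In diapause 18 of the 31 models lay above the median of the evm models tested, which was 14.7 FPKM. At 5 h only 3 did so, evm.TU.ctg545.1, evm.TU.ctg575.4 and evm.TU.ctg1152.1, at a median of 16.8 FPKM. FPKM rests on the same counts as the rule, so this drop follows largely from how the 31 were chosen.

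**Figure D3:**
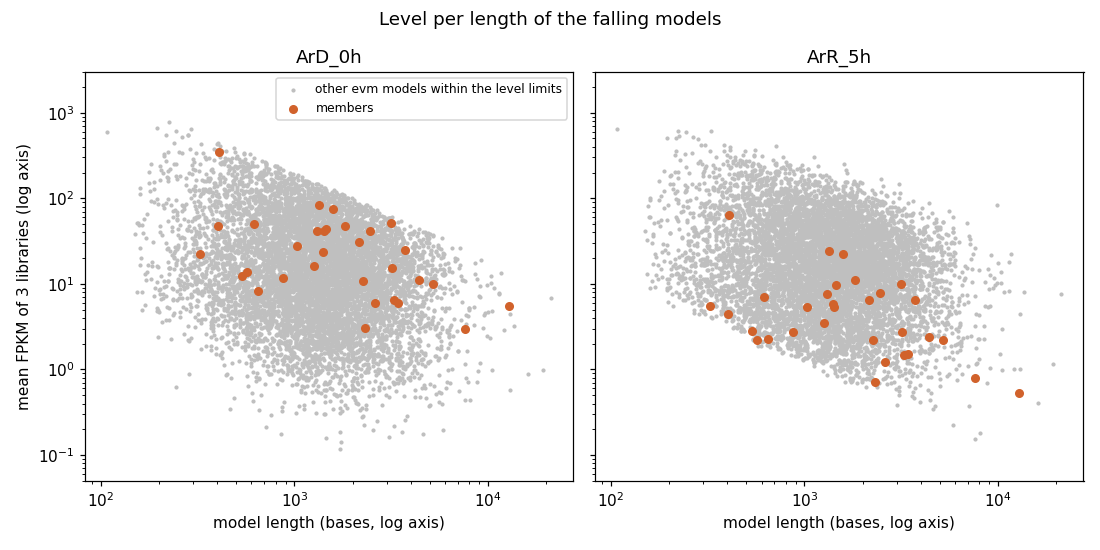
Mean FPKM of the 3 libraries against model length in bases (both log axes) at ArD_0h (left) and ArR_5h (right), for the 31 members (orange) and the other evm models within the level limits (grey). The members span the cloud at 0 h and lie in its lower part at 5 h, where all but 3 are below 16.8 FPKM. This shift follows largely from the rule, and the slanting edges of the cloud come from the limits on CPM.

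The spread within each stage entered the rule, which is read at the lowest 0 h and the highest 5 h library, so the CVs of the 31 are given as a description. The median CV of the 31 was 5.44% at 0 h and 21.4% at 5 h, and in 26 of them the 5 h value was larger. Among the other 8171 evm models within the level limits, the medians were 7.52% and 13.5%, and 69.3% had the larger CV at 5 h. Counting alone would give the 31 a median CV of 5.13% at 0 h and 11.4% at 5 h, since fewer reads were counted there. The observed CV was above the counting error in 17 of the 31 at 0 h and in 21 at 5 h.

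The 5 h libraries differed in a common direction. Replicate 2 was the highest of them in 24 of the 31 models and replicate 3 the lowest in 21, and in 19 models (61.3%) replicate 1 lay between them. The median ratio of replicate 3 to replicate 2 was 0.707, with a range from 0.334 in evm.TU.ctg883.6 to 1.26 in evm.TU.ctg474.7. This order also ran through models outside the group. It was found in 43.0% of the other evm models within the level limits, where the median ratio was 0.868, and in 58.9% of the 514 other down-regulated evm models within the same limits, where the ratio was 0.686. It depended in part on the scaling. With the scaling factors of TMM the order held in 17 of the 31 models with a ratio of 0.781, against 33.01% and 0.958 in the other evm models. The ratio in the 31 thus stayed close to that of other down-regulated models, 0.758 with TMM, and no test of these differences was made.

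The spread was not shared by all. With a CV of 25% taken as a dividing line after the values were seen, 12 models lay above it, and 11 of them had the order of replicates 3, 1 and 2 from low to high. At the top stood evm.TU.ctg883.6 at 48.01%, evm.TU.ctg519.1 at 41.1% and evm.TU.ctg274.10 at 39.4%, against counting errors of 10.7%, 8.77% and 7.96%. At the bottom stood the joined model evm.TU.ctg607.19_evm.TU.ctg607.22, then evm.TU.ctg575.4 at 3.24% and evm.TU.ctg1152.1 at 3.51%, with counting errors of 5.21% and 4.998%. The latter 2 had 317 to 423 reads in each 5 h library and the 3 most variable models 46 to 197. The joined model, steadiest of all, had 51 to 63. With 272 to 388 reads, evm.TU.ctg316.5 and evm.TU.ctg545.1 had CVs of 15.1% and 17.8%. The part of read number in the spread was not tested.

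**Figure D4:**
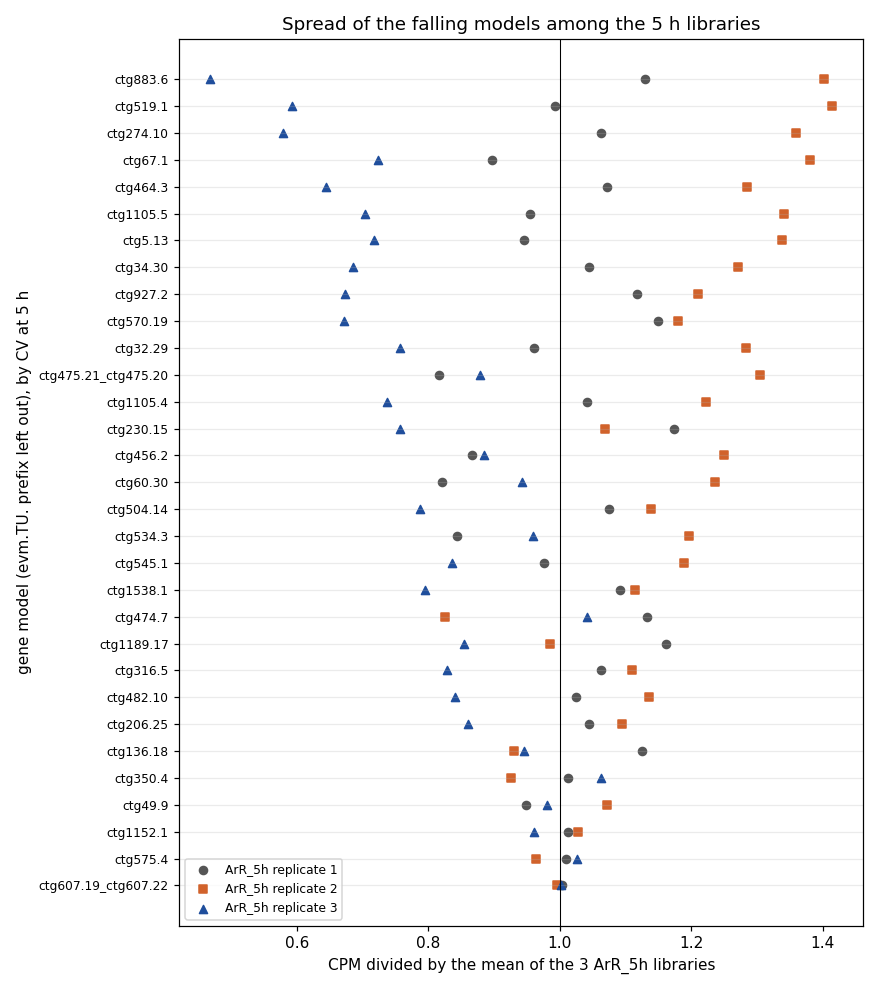
CPM of each 5 h library divided by the mean of the 3 ArR_5h libraries of the same model, one row a model, ordered from the most variable (evm.TU.ctg883.6, top) to the steadiest (evm.TU.ctg607.19_evm.TU.ctg607.22, bottom). Replicate 2 (orange squares) lies right of replicate 3 (blue triangles) in 26 of the 31 rows, most widely in the upper rows.

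This order bears on how many models met the rule, since the rule is read at the highest 5 h library. The median difference was 4.41-fold against ArR_5h replicate 1, 4.02-fold against replicate 2 and 5.92-fold against replicate 3. Without ArR_5h replicate 2 the same rule took in 70 evm models, among them all 31. Without ArR_5h replicate 1 it took in 40, without ArR_5h replicate 3 31, and without any single ArD_0h library 33 to 34. Among single libraries, ArR_5h replicate 2 thus moved the number 31 most. The limit on the gap moved it as well, to 178 at 2-fold and 10 at 4-fold. Leaving out a library can only relax the limits on the gap and on the 5 h level. Without an ArD_0h library the diapause mean, which must stay below 200 CPM, can rise. The highest such mean among the 31 was 164 CPM with all libraries, and all 31 were kept.

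Models next to the 31 on their contigs were not used by the rule and could be tested. Taking evm models whose number differs by 1, there were 32 neighbours that were not themselves among the 31, of which 26 had enough reads to be tested. Of these, 4 were down-regulated (15.4%) and none was up-regulated, and 22 were not called, beside 8.21% down-regulated and 14.7% up-regulated among all evm models tested. At the same adjusted p but with no limit on fold change, 10 of the 26 were lower and 2 were higher at 5 h, beside 27.7% and 33.1% of the evm models tested. The median log2 fold change of the neighbours was −0.16, against 0.02 over the evm models tested. These shares rest on few calls, and their difference was not tested.

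The down-regulated neighbours changed less than the members beside them. The model evm.TU.ctg1189.16 fell from 15.03, 16.4 and 17.3 CPM to 6.47, 6.405 and 5.21 CPM, a log2 fold change of −1.46 ± 0.15 (SE; edgeR, adjusted p = 1.90e-05), next to evm.TU.ctg1189.17 at −2.16 ± 0.23. The model evm.TU.ctg350.5 fell from 23.5, 20.2 and 23.99 CPM to 9.21, 11.3 and 7.65 CPM (−1.31 ± 0.15; edgeR, adjusted p = 4.15e-05), next to evm.TU.ctg350.4 at −2.02 ± 0.22. In both neighbours the libraries of the 2 stages did not overlap, and in the members the rule demands this. The weak evm.TU.ctg607.18 fell from 3.88, 4.83 and 3.11 CPM to 2.39, 0.801 and 1.14 CPM (−1.45 ± 0.37; edgeR, adjusted p = 0.00609). The model evm.TU.ctg927.1 fell from 28.1, 27.7 and 27.6 CPM to 15.7, 17.01 and 9.28 CPM (−1.04 ± 0.17; edgeR, adjusted p = 0.000481), close to the limit on fold. Its call was lost without ArR_5h replicate 3 (−0.84) and with scaling by library totals (−0.997). When the fold limit itself was tested with glmTreat of edgeR, 1 of the 26 neighbours was called. Reads shared between neighbouring models were not separated here, and their part in these values was not tested.

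Beside the 2 models with the largest change no tested neighbour was called. On both sides of evm.TU.ctg456.2 stood evm.TU.ctg456.1 at 0.37 ± 0.17 (edgeR, adjusted p = 0.0873) and evm.TU.ctg456.3 at 0.14 ± 0.15 (edgeR, adjusted p = 0.432). The libraries of evm.TU.ctg456.3 read 23.7, 24.1 and 25.3 CPM at 0 h and 25.7, 24.02 and 31.995 CPM at 5 h and overlapped. The joined model beside evm.TU.ctg5.13, evm.TU.ctg5.14_evm.TU.ctg5.15, stood at −0.03 ± 0.14 on the same scale (edgeR, adjusted p = 0.884). The largest rise among the 26 tested neighbours was that of evm.TU.ctg230.16, from 35.2, 31.8 and 31.99 CPM to 48.5, 52.2 and 43.96 CPM (0.52 ± 0.09; edgeR, adjusted p = 0.000763), under the limit on fold although every 5 h library lay above every 0 h library. It stands next to evm.TU.ctg230.15, which was 4.48-fold lower.

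**Figure D5:**
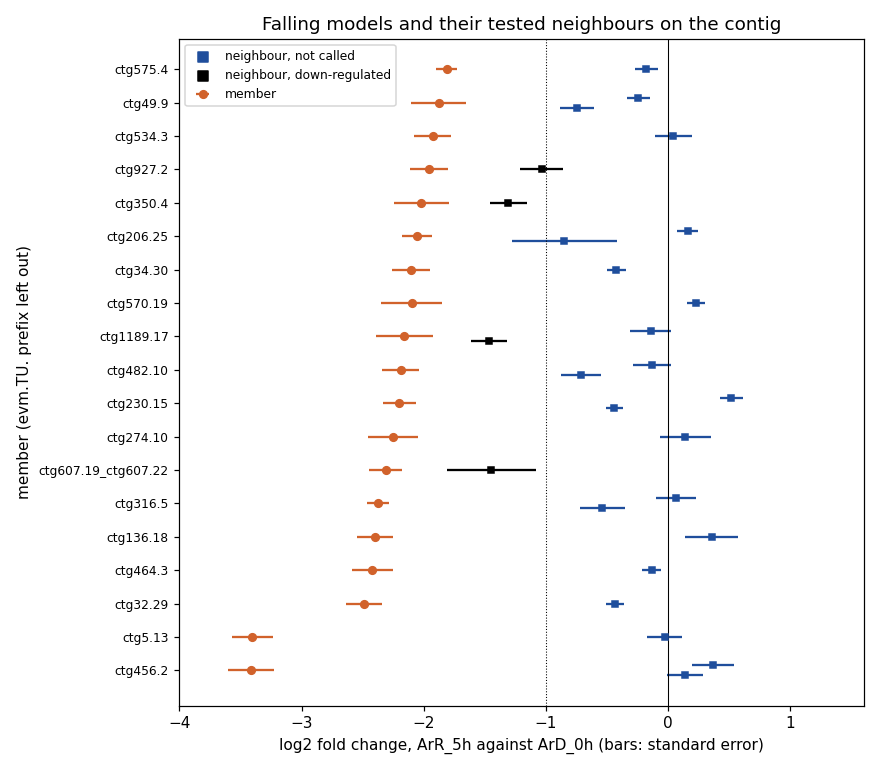
Log2 fold change of ArR_5h against ArD_0h with its standard error for the 19 members that have a tested neighbour (orange circles) and for their neighbours on the contig (squares, black where down-regulated). The members lie between −3.41 and −1.81, and the neighbours between −1.46 and 0.52, with 4 of 26 left of the dotted line at −1. That the members lie lower follows largely from the rule.

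The 31 that met the rule in every library made up 0.378% of the evm models within the level limits. By the ratio of group means alone, 106 evm models within those limits were more than 3-fold lower. The mirrored rule, with the stages exchanged, took in 152 of 8164 evm models (1.86%). Of the 2003 models without an evm identifier that met the same limits on level, 55 (2.75%) met the rule. The models that rose by the mirrored rule also showed the order of the 5 h libraries seen above, in 53.3% of cases and with a median ratio of replicate 3 to replicate 2 of 0.814, or 0.898 with TMM, so that lower values in replicate 3 were seen in models of both directions. These shares are descriptions of counts that share all 6 libraries, and their differences were not tested.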

How the data were processed

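The deposited table gives, per gene model and library, the raw count of reads beside an FPKM, without pooling of replicates. The authors filtered 150 bp paired-end reads of a kit that does not mark strand, aligned them to the Artemia franciscana genome with HISAT2 2.0.5 and counted them with featureCounts 1.5.0-p3 (versions per the submitters' processing notes). Divergence from this related species can lower a model's count in all libraries alike, and reads of overlapping or antisense models cannot be told apart. The authors derived FPKM from the count and the length of the model. Lengths were recovered by dividing count by FPKM and scaling for the library. The common scale was fitted so that lengths of a set of abundant models came out whole. With that scale, lengths were whole to 0.01 bases in 100% of 14844 models. Columns left unused numbered 0.

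CPM is count over column total. The rule was applied to all models, and the members and lists were chosen with earlier results of these data known. Counts were tested with edgeR 4.0.16 in R 4.3.3 (quasi-likelihood, TMM factors, filterByExpr with minimum count 10 and minimum total 15, Benjamini-Hochberg over the 11959 models tested). Standard errors (SE) are the size of the log2 fold change over the square root of F, and counting errors are the inverse square root of the mean count. The fit was tested on simulated data. Alternatives were RLE factors or library totals, other filters, DESeq2 1.42.0, voom of limma 3.58.1, glmTreat, a replicate block, leaving out each library, and other limits of the rule.

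Named are the 8 members highest in CPM, fold and FPKM each, the 3 nearest to the limit on each side, the 3 most and 3 least variable at 5 h, those adjacent to each other or in the list of Gene Ontology terms, and up to 6 neighbours. Other names were added after their values were seen. Sequences of the models are not used here. Reads have no molecular identifiers, so counting errors cover the sampling of reads only. Figures were drawn with matplotlib 3.10.9.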

Additional observations from a re-analysis of the deposited data

How the results depend on the processing

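The number of models that met the rule was 31, and it was 178 with a 2-fold gap and 10 with a 4-fold gap. Leaving out single libraries gave 31 to 70, the latter without ArR_5h replicate 2. With TMM or RLE factors it was 38, and with FPKM in place of CPM 36, of which 30 were among the 31. With minimum levels of 0.5 or 2 CPM it was 42 and 25, and with no upper limit 36. The 31 were all called down-regulated under each alternative run, with a median log2 fold change of −2.27 to −2.11. The rule had chosen them on this same contrast, so nothing is read from these calls. The 4 down-regulated neighbours became 1 with glmTreat, which tests against the fold limit itself, 3 with library totals, 3 to 5 when a library was left out, and 9 of 46 tested when models 2 numbers away were included, where 5 were up-regulated. Apart from glmTreat, of which only the counts are given, evm.TU.ctg927.1 was the only one of these 4 to lose its call, with library totals and without ArR_5h replicate 3.

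With the replicate number as a replicate block, 4 neighbours were called down-regulated. The 31 members, chosen by the rule on this contrast, were called too, and their median log2 fold change was −2.23. The deviations of same-numbered libraries from the means of their groups correlated at 0.0131, 0.0150 and 0.0638, so the numbers are not shown to pair them. Depth limits the 5 members below 10 CPM in diapause most.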
